A study of Mus musculus with 2 samples.

Results

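The 30 genes described here serve glycolysis and the response to low oxygen. They were 2 carriers of glucose and lactate, 14 glycolytic enzymes, 2 enzymes that regulate the flow into and out of glycolysis, the factor *Hif1a* and 11 of its targets. They were chosen by name, and all 30 were found among the 32285 gene identifiers of the count tables. Lung alveolar macrophages (AMs), the resident phagocytes of the air spaces, were sorted from C57BL/6 mice aged 10 weeks per the labels and profiled in 2 droplet libraries, 1 for each group. The control group received vehicle, and the other group carried orthotopic tumors of LLC, a mouse Lewis lung carcinoma line labelled with tdTomato and implanted in the left lung. Control and tumor-bearing mice were bred separately, the lungs were digested with enzymes at body temperature before the sort, and the sort took CD45+ autofluorescent Siglec-F+ F4/80+ cells. The number of mice behind each library is not given in the sources used here. Barcodes with at least 500 detected genes and at most 10% mitochondrial transcripts were kept, which left 6185 of 8485 control barcodes and 7666 of 9175 tumor barcodes.

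Glycolysis splits glucose into pyruvate and yields ATP without oxygen, and lactate dehydrogenase then turns pyruvate into lactate so that the pathway can go on. When oxygen falls, the prolyl hydroxylases that mark HIF-1α for destruction lose activity, and the stabilised factor raises glucose uptake, glycolytic enzymes and a set of further targets. AMs live in oxygen-rich air spaces and are known to rely on fatty acid oxidation more than most macrophages, while inflammatory signals can raise both *Hif1a* and glycolysis without a change in oxygen.

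Since HIF binds a short core written ACGTG or GCGTG, the promoter windows of the members were searched for both cores on either strand. RefSeq windows on build GRCm38.p6 reach from 250 bases before to 50 bases after the annotated transcription start, and 28 of the 30 members matched at least 1 window. A core was present in 32 of 39 member windows (82.1%) and in 14380 of all 32851 windows (43.8%). Counted by gene, it was present for 26 of 28 members (92.9%) and for 46.7% of all 27025 genes. Among the enzymes 12 of 14 had a core, and all 9 matched HIF targets had at least 1. ACGTG also lies inside the CACGTG E-box that other factors bind, and a match describes the letters of the window and not a bound site. The base composition of the windows was not matched in this comparison. The 4 promoters below are shown for the 250 bases before the RefSeq start. They belong to members with a single RefSeq window whose tumor library level was at least 1.5-fold higher, so they were picked after the values were seen. The GENCODE annotation starts *Pfkl* at position 78010083, so the whole stretch shown for it lies past that start. It starts *Slc2a1* at 119108711, within the stretch shown. Capitals mark the cores on either strand, read 5′ to 3′ along the gene.
Slc2a1 (chr4:119108495-119108744, plus strand): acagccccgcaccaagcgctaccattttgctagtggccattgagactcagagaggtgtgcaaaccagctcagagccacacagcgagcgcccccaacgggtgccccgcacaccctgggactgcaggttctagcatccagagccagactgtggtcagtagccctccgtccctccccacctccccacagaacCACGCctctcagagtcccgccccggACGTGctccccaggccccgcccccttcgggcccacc
Hk2 (chr6:82774455-82774704, minus strand): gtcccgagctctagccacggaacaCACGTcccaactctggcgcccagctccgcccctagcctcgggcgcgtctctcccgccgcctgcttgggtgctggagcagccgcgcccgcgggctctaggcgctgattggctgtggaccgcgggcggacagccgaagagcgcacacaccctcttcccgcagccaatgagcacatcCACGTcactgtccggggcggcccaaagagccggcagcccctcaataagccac
Pfkl (chr10:78009808-78010057, minus strand): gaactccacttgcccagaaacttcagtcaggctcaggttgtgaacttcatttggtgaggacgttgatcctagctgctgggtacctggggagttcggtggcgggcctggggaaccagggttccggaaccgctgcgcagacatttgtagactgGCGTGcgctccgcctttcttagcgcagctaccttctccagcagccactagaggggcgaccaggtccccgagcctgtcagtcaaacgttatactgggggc
Pgam1 (chr19:41911621-41911870, plus strand): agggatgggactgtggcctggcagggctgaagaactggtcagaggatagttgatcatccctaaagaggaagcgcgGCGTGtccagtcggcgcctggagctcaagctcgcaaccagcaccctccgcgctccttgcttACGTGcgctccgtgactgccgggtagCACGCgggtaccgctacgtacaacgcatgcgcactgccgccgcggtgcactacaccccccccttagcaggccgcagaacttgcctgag

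A gene's level is its number of unique molecular identifiers (UMIs, 1 per captured transcript 3′ end) per 1000000 UMIs of the same barcodes (CPM). Parentheses hold its exact 95% Poisson interval, and log2 ratios of CPM carry exact conditional binomial intervals. These intervals cover counting error only. With 1 library in each group no test was possible, and the library and the condition cannot be told apart. The control barcodes held 64850143 UMIs with a median of 10370 for each barcode, and the tumor barcodes held 68801889 UMIs with a median of 8264. A member was read as higher or lower when it passed 1.5-fold (0.58 on the log2 scale) and stood at 5 CPM or more in the mean of both groups, a floor that 8866 genes passed. All 12 AM markers were present in both libraries, with a summed level of 17999.7 CPM in control and 15266.0 CPM in tumor. Most of the sum was *Chil3*, at 11656.5 and 10519 CPM. *Marco* stood at 585 and 207 CPM, *Fabp1* at 515 and 130 CPM, *Siglecf* at 137 and 102 CPM and *Pparg* at 127 and 119 CPM. Only *Plet1*, at 1347 and 1559 CPM, and *Itgax*, at 362 and 384 CPM, were higher in tumor. Of the monocyte-derived macrophage markers, *Itgam* stood at 2.10 CPM in control and 15.1 CPM in tumor, *Ccr2* at 4.38 and 9.16 CPM, *Cx3cr1* at 1.97 and 3.11 CPM and *Ly6c2* at 0.154 and 1.74 CPM, with *Tgfb3* below 1 CPM in both. The 12 immediate early and heat shock genes that tissue digestion can induce summed to 4212 and 7055 CPM. Other marker lists differed too. Fibroblast markers summed to 0.709 CPM in control and 31.7 CPM in tumor, most of it *Dcn* and *Col3a1*, and *Col1a1* stood below 1 CPM in both. Neutrophil markers summed to 70.3 and 123 CPM, a difference carried by *S100a8* at 45.2 and 103 CPM, while *Cxcr2* stood at 10.8 and 9.27 CPM, *S100a9* at 324 and 3 UMIs, *Retnlg* at 50 and 0 UMIs and *Ly6g* at 2 and 0 UMIs. Epithelial markers summed to 582 and 223 CPM, most of it *Krt19*, with *Epcam* at 53.7 and 4.39 CPM. *Cdh1* stood at 40.8 and 19.3 CPM and *Sftpc* at 16.4 and 9.37 CPM. *Krt8*, at 0.154 and 0.581 CPM, and *Krt18*, at 0.154 and 0.145 CPM, were nearly absent from both libraries. With the 864 control and 245 tumor barcodes with at least 5 UMIs and 1000 CPM of fibroblast, neutrophil, epithelial or another non-macrophage marker list left out, the same 5 members were at least 1.5-fold higher in tumor as in the comparison that follows. Most of these barcodes met the limits through the epithelial list alone. Without that list, 22 control and 39 tumor barcodes were left out, and the same 5 members were higher. The part of the monocyte-derived macrophage and digestion genes was not tested.

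In the tumor library the glucose carrier, 2 hexokinases, a phosphofructokinase subunit and *Pgam1* were higher, while the enzymes with the most UMIs differed little. Of the 25 members past the floor, 5 were at least 1.5-fold higher (*Slc2a1*, *Hk1*, *Hk2*, *Pfkl* and *Pgam1*), against 5.41% of all genes tested, and none was at least 1.5-fold lower, against 4.73%. The enzymes had a median log2 ratio of 0.28, with 12 of 14 above 0, the 6 HIF targets past the floor had a median of 0.03, and all genes past the floor had a median of −0.04. Over all 11 HIF targets, the 5 under the floor included, the median was 0.46, with 8 above 0.

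**Figure D1:**
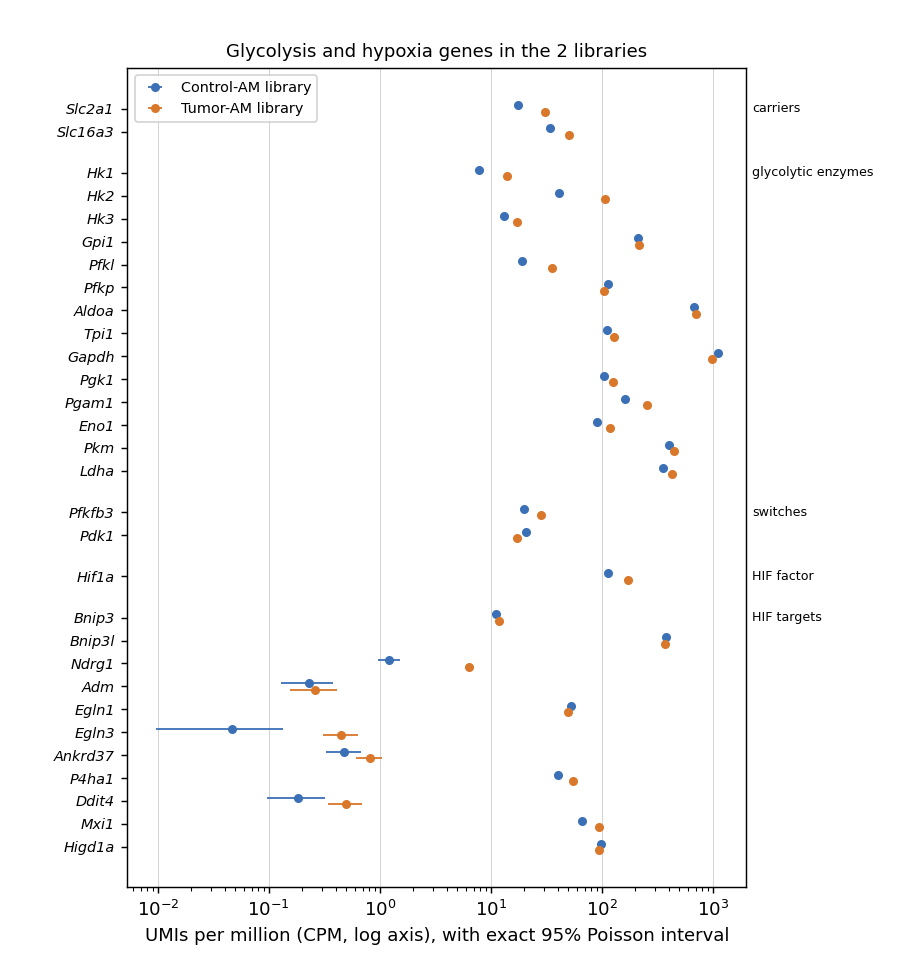
Level of each of the 30 genes in the control (blue) and tumor (orange) libraries, as CPM on a log axis, with exact 95% Poisson intervals that are narrower than most points. The widest gap among genes above 5 CPM in both libraries is that of Hk2, at 41.3 and 107 CPM, and Adm, Egln3, Ankrd37 and Ddit4 lie below 1 CPM in both libraries.

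Both carriers had log2 ratios above 0, and 1 passed the limit. *Slc2a1* encodes GLUT1, which brings glucose into the cell, and stood at 17.6 CPM (16.6 to 18.6) in control and 30.6 CPM (29.3 to 32.0) in tumor, a log2 ratio of 0.80 (0.70 to 0.91). *Slc16a3* encodes MCT4, which exports lactate, and stood at 33.9 CPM (32.5 to 35.4) and 50.1 CPM (48.5 to 51.8). Its log2 ratio of 0.56 (0.49 to 0.64) lay just under the 1.5-fold limit.

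Hexokinase phosphorylates glucose and thereby traps it, and *Hk2* had the largest ratio of any member past the floor. *Hk2* had 2680 UMIs in control, or 41.3 CPM (39.8 to 42.9), and 7378 UMIs in tumor, or 107 CPM (104.8 to 109.7), which was 2.59-fold higher, with a log2 ratio of 1.38 (1.31 to 1.44). The UMIs were spread over many barcodes, with at least 1 in 1903 control and 3967 tumor barcodes, and the 5 barcodes with the most held 0.773% of the tumor total. The share of these UMIs that came from background RNA in the droplets was not estimated. *Hk1*, the form found in most tissues, stood at 7.90 CPM (7.23 to 8.61) in control and 14.1 CPM (13.2 to 15.0) in tumor, a log2 ratio of 0.83 (0.68 to 0.99). *Hk3*, the hexokinase of myeloid cells, stood at 13.2 and 17.2 CPM, for a log2 ratio of 0.39 (0.26 to 0.52) that did not reach 1.5-fold.

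The middle steps were uneven. *Gpi1*, which turns glucose 6-phosphate into fructose 6-phosphate, was level at 210.2 CPM in control and 218 CPM in tumor. Phosphofructokinase commits the sugar to glycolysis, and the 2 subunits among the members had ratios on either side of 0. *Pfkl*, the liver-type subunit, stood at 19.2 CPM (18.2 to 20.3) in control and 35.4 CPM (34.0 to 36.8) in tumor, a log2 ratio of 0.88 (0.78 to 0.98). *Pfkp*, the platelet-type subunit, stood at 114 CPM (112 to 117) and 105 CPM (102 to 107), a log2 ratio of −0.13 (−0.17 to −0.08). *Aldoa*, which cleaves the 6-carbon sugar, was level at 680.4 and 705 CPM, and *Tpi1*, which interconverts the 3-carbon products, stood at 111 and 128 CPM, for a log2 ratio of 0.21.

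Among the later enzymes, *Pgam1*, which moves the phosphate of phosphoglycerate, was the only one past 1.5-fold. *Pgam1* stood at 163 CPM (160.2 to 166) in control and 257 CPM (254 to 261) in tumor, a log2 ratio of 0.66 (0.62 to 0.69). With the *Apoe*+ *S100a6*-high barcodes described further on left out, its log2 ratio was 0.57, just under the limit. *Gapdh*, which oxidises glyceraldehyde 3-phosphate and is often used as a reference transcript, had a ratio below 0, at 1107 CPM (1099 to 1115) in control and 988 CPM (980.2 to 995) in tumor, a log2 ratio of −0.16 (−0.18 to −0.15). *Pgk1*, the first ATP-yielding step, stood at 104 and 126 CPM, and *Eno1*, which makes phosphoenolpyruvate, at 91.4 and 119 CPM, with log2 ratios of 0.28 and 0.38. *Pkm*, pyruvate kinase, stood at 405 and 450.1 CPM (log2 ratio 0.15), and *Ldha*, a subunit of lactate dehydrogenase, at 356 and 431 CPM (log2 ratio 0.28). These later enzymes have many near-identical pseudogene copies in the genome, so reads shared with a copy may be missing from their counts. The retrocopy *Eno1b* had 57 control and 104 tumor UMIs.

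Summed over the 14 enzymes, the level was 3425 CPM (3411 to 3439) in control and 3702 CPM (3687 to 3716) in tumor. The summed level thus differed far less than *Hk2*, *Hk1* or *Pfkl* did, since *Gapdh*, *Aldoa*, *Pkm* and *Ldha* hold most of the enzyme UMIs.

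The 2 regulators pointed in opposite directions without reaching 1.5-fold. *Pfkfb3* makes fructose 2,6-bisphosphate, the activator of phosphofructokinase, and stood at 19.97 CPM (18.9 to 21.1) in control and 28.5 CPM (27.2 to 29.7) in tumor, a log2 ratio of 0.51 (0.41 to 0.61). *Pdk1*, a pyruvate dehydrogenase kinase and a HIF target itself, stood at 20.6 CPM (19.5 to 21.7) and 17.1 CPM (16.1 to 18.1), a log2 ratio of −0.27 (−0.38 to −0.16).

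*Hif1a*, the oxygen-regulated subunit of the factor, stood at 115 CPM (112 to 117) in control and 171 CPM (167 to 174) in tumor. Its log2 ratio of 0.57 (0.53 to 0.62) lay at the edge of the limit, and HIF-1α protein, which oxygen controls mainly through its stability, was not measured. The 6 targets past the floor had ratios on both sides of 0, and none passed 1.5-fold. *Bnip3*, a mitophagy receptor, stood at 11.1 CPM in control and 11.8 CPM in tumor, and its relative *Bnip3l* at 377 and 369.7 CPM. *Egln1*, which encodes the main HIF prolyl hydroxylase, stood at 52.4 CPM (50.6 to 54.1) and 50.1 CPM (48.4 to 51.8), and *Higd1a*, a mitochondrial protein, at 99.3 and 94.0 CPM. These 4 targets had log2 ratios between −0.08 and 0.09. *Mxi1*, a MYC antagonist, stood at 66.4 and 94.1 CPM, for a log2 ratio of 0.50 (0.45 to 0.56), and *P4ha1*, a collagen prolyl hydroxylase, at 40.1 and 55 CPM, for a log2 ratio of 0.46 (0.38 to 0.53).

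The remaining 5 targets lay under the floor. *Ndrg1*, a stress-induced gene often used as a hypoxia marker, had 79 UMIs in control and 439 in tumor, or 1.22 CPM (0.964 to 1.52) and 6.38 CPM (5.80 to 7.01). That is a log2 ratio of 2.39 (2.04 to 2.75), which was not counted because the mean of both libraries lies under the floor. The *Ndrg1* UMIs lay in 66 control and 325 tumor barcodes. *Adm*, which encodes the vasodilator adrenomedullin, had 15 and 18 UMIs, and *Ankrd37*, whose function is little known, had 31 and 56. *Ddit4*, the inhibitor of mTORC1 also called REDD1, had 12 and 34 UMIs. *Egln3*, the HIF prolyl hydroxylase that HIF itself induces, had 3 and 31 UMIs, a log2 ratio of 3.28 with an interval from 1.60 to 5.64. All 5 had log2 ratios above 0, which is why the median over all 11 targets lies above that of the 6 past the floor, and at such counts they carry little weight in a sum.

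**Figure D2:**
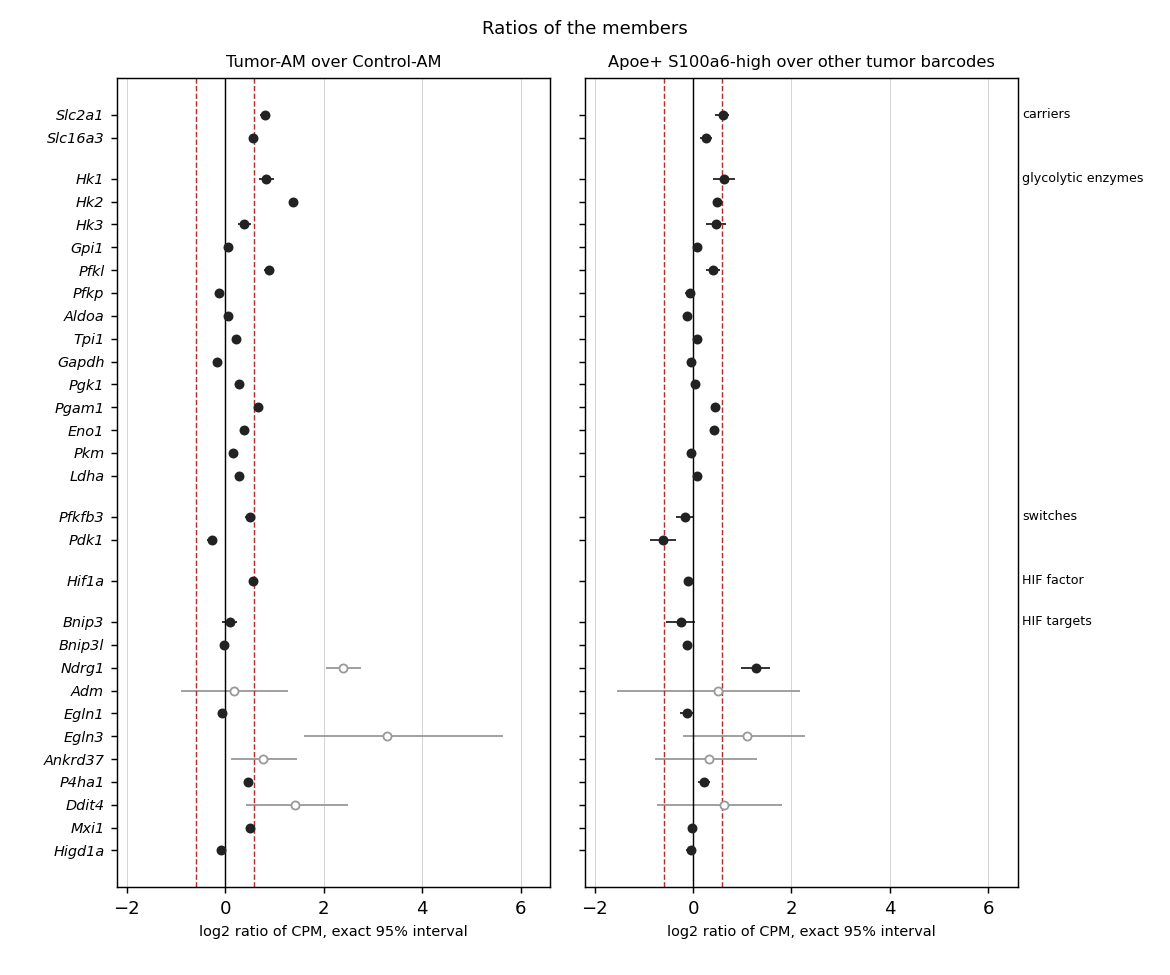
Log2 ratio of CPM for each gene, with exact 95% intervals, of tumor over control (left) and of Apoe+ S100a6-high over the other tumor barcodes (right); dashed lines mark 1.5-fold, and open grey points lie under the floor of 5 CPM. On the left Hk2 stands at 1.38, Pfkl at 0.88, Hk1 at 0.83, Slc2a1 at 0.80 and Pgam1 at 0.66, while on the right Slc2a1, Hk1 and Ndrg1 lie above the upper line and Pdk1 lies below the lower one among the genes past the floor, with Egln3 and Ddit4 above it as open points at 1.10 and 0.62.

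A list of 46 other genes of both pathways was read in the same way. Of the 30 past the floor, 2 were at least 1.5-fold higher and 2 at least 1.5-fold lower, against 5.41% and 4.73% of all genes tested, and both higher genes stood under 5 CPM in control and so passed the floor only through the tumor library. *Vegfa*, which encodes the angiogenic growth factor and is a HIF target that further signals also drive, stood at 2.24 CPM in control and 29.0 CPM in tumor, a log2 ratio of 3.69 (3.45 to 3.95). *Gbe1*, the glycogen branching enzyme, stood at 4.80 and 8.34 CPM. *Hmox1*, the heme oxygenase that NRF2 and HIF can both induce, was lower, at 1333 and 723 CPM, for a log2 ratio of −0.88 (−0.90 to −0.87). *Pdk4*, the pyruvate dehydrogenase kinase tied to fatty acid use, was lower too, at 30.2 and 17.2 CPM, for a log2 ratio of −0.82 (−0.92 to −0.71). The hydroxylase partner *Vhl*, the subunit *Arnt* and the related factor *Epas1* had log2 ratios of 0.50, 0.29 and 0.05.

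The next question was whether the enzymes move with the HIF targets in the *Apoe*+ *S100a6*-high barcodes. These were taken as tumor barcodes of at least 3000 UMIs with at least 200 CPM of *Apoe*, the lipid carrier, and at least 400 CPM of *S100a6*, a calcium-binding protein. They numbered 1048 of 7191 tumor barcodes (14.6%, exact binomial interval 13.8 to 15.4), against 22 of 5745 in control (0.383%). The group is a range along 2 levels, with 321 of its barcodes within 1.5-fold of a limit and 350 others just outside. Its median was 9886 UMIs for each barcode against 8394 in the 6143 other tumor barcodes. AM markers summed to 10673 CPM in the group and 16132 CPM in the others, most of it *Chil3* at 7566.5 and 11074 CPM. The list was uneven, with *Marco* at 20.8 and 241 CPM and *Fabp1* at 13.9 and 153 CPM. *Pparg* stood at 88.9 and 125 CPM, *Mrc1* at 514 and 746 CPM and *Plet1* at 1167 and 1630 CPM. Only *Itgax* was higher in the group, at 449 and 371 CPM. Of the markers of monocyte-derived macrophages, *Itgam* stood at 44.6 and 9.26 CPM, *Ccr2* at 14.7 and 8.03 CPM, *Ly6c2* at 4.85 and 1.15 CPM and *Cx3cr1* at 3.0 and 3.1 CPM, and *Tgfb3* was below 1 CPM in both. Neutrophil markers summed to 176 and 114 CPM, most of it *S100a8*, while *Cxcr2* stood at 1.85 and 10.8 CPM, *S100a9* at 0 and 3 UMIs, and *Ly6g* and *Retnlg* at 0 in both. Epithelial markers summed to 38.5 and 260 CPM, most of the latter *Krt19*, with *Krt8* and *Krt18* below 1 CPM in both. Fibroblast markers summed to 1.5 and 38.1 CPM. With barcodes rich in non-macrophage markers left out as above, the same 4 members passed 1.5-fold as in the comparison that follows. The part of the AM and monocyte-derived macrophage markers in the ratios was not tested.

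The *Apoe*+ *S100a6*-high barcodes had more transcripts of the glucose carrier *Slc2a1* and of the hexokinase *Hk1*, while the HIF targets past the floor had log2 ratios on both sides of 0. Of 26 members past the floor, *Slc2a1*, *Hk1* and *Ndrg1* were at least 1.5-fold higher, against 3.76% of 8716 genes tested, and *Pdk1* was at least 1.5-fold lower, against 5.93%. The median log2 ratio was 0.08 for the 14 enzymes, −0.05 for the 7 HIF targets past the floor and −0.11 for all genes past it. Over all 11 HIF targets it was 0.22, with 6 above 0, and the 4 under the floor rest on 4 to 11 UMIs each in the group. Centred on the median of all genes, the enzymes stood at 0.19 and the HIF targets past the floor at 0.06, and *Pdk1* no longer passed the limit. *Pdk1* kept its call in 8 of 13 settings at this fold and floor, with a log2 ratio of −0.34 when both limits were halved.

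*Slc2a1* stood at 42.6 CPM (38.9 to 46.6) in the group and 28.2 CPM (26.8 to 29.6) in the other tumor barcodes, a log2 ratio of 0.60 (0.45 to 0.74). *Hk1* stood at 20.1 CPM (17.6 to 22.9) and 13.0 CPM (12.1 to 13.9), a log2 ratio of 0.63 (0.41 to 0.85). Both lay close to the 1.5-fold limit, which their intervals include. *Hk2* stood at 139.6 CPM (133 to 147) and 99.9 CPM (97.4 to 102.6), a log2 ratio of 0.48 (0.40 to 0.56), and *Hk3*, *Pgam1*, *Eno1* and *Pfkl* had log2 ratios of 0.47, 0.45, 0.43 and 0.41. The most abundant enzymes were level, with log2 ratios of −0.13 for *Aldoa*, −0.05 for *Gapdh*, −0.05 for *Pkm* and 0.07 for *Ldha*. Summed over the 14 enzymes, the level was 3813 CPM (3777 to 3849) in the group and 3696 CPM (3680 to 3712) in the others.

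*Ndrg1* was the only 1 of the 11 listed HIF targets past both the floor and 1.5-fold. It had 140 UMIs in the group and 290 in the others, or 12.4 CPM (10.4 to 14.6) and 5.13 CPM (4.55 to 5.75), a log2 ratio of 1.27 (0.97 to 1.56). *Hif1a* stood at 159.8 and 172 CPM (log2 ratio −0.10), and *Bnip3*, *Bnip3l* and *Egln1* had log2 ratios of −0.24, −0.12 and −0.13. *P4ha1* had a log2 ratio of 0.22 (0.10 to 0.34), and *Mxi1* and *Higd1a* had −0.02 and −0.05. The 11 HIF targets summed to 663 CPM (648 to 678) in the group and 688 CPM (681 to 695) in the others. *Pdk1* stood at 11.9 CPM (9.99 to 14.1) and 18.2 CPM (17.1 to 19.3), a log2 ratio of −0.61 (−0.88 to −0.35), and *Pfkfb3* at 25.8 and 28.9 CPM.

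Of the 46 other pathway genes, 32 passed the floor, with 2 at least 1.5-fold higher and 4 at least 1.5-fold lower in the group, against 3.76% and 5.93% of all genes tested. *Vegfa* stood at 73.5 CPM against 19.8 CPM, for a log2 ratio of 1.89 (1.76 to 2.02), and *Ldhb*, the other lactate dehydrogenase subunit, at 22.0 against 4.83 CPM, for a log2 ratio of 2.19 (1.93 to 2.44), and passed the floor only through the group. *Pdk4* stood at 1.24 CPM against 20.4 CPM, for a log2 ratio of −4.04 (−4.92 to −3.29), and passed the floor only through the other barcodes. *Tigar*, a phosphatase that opposes glycolysis, stood at 11.1 against 17.0 CPM, the metallothionein *Mt1* at 1124 against 2071 CPM and *Hmox1* at 489 against 768 CPM.

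The levels were then split by each of the 2 limits, since a gene could follow *Apoe*, *S100a6* or neither. The tumor barcodes under both limits numbered 4002, those over the *Apoe* limit only 745 and those over the *S100a6* limit only 1396. *Hk2* stood at 40.1 CPM (38.6 to 41.8) in the 5399 control barcodes under both limits and at 88.3 CPM (85.3 to 91.5) in the tumor barcodes under both. It stood at 114 CPM (106 to 122) with *Apoe* only, 123 CPM (117 to 129) with *S100a6* only and 139.6 CPM with both, so most of the difference between the libraries in *Hk2* was present in tumor barcodes outside the group. Between the barcodes under both limits, *Hk2* (log2 ratio 1.14) and *Pfkl* (0.69) were at least 1.5-fold higher in tumor, against 3.43% of 8831 genes. *Hk1*, *Slc2a1* and *Pgam1*, at 0.49, 0.43 and 0.40, were not.

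*Slc2a1* stood at 17.4 CPM in control barcodes under both limits and at 23.5, 32.7, 37.8 and 42.6 CPM in the tumor barcodes with neither, *Apoe* only, *S100a6* only and both. *Eno1* was higher in the barcodes over the *S100a6* limit, at 100.03 CPM with neither, 106 CPM with *Apoe* only, 150.4 CPM with *S100a6* only and 153 CPM with both. *Pfkl* stood at 30.6, 44.8, 35.4 and 44.6 CPM in that order, and its log2 ratios against the barcodes with neither, 0.55 with *Apoe* only and 0.54 with both, lay just under the limit. *Ndrg1* stood at 2.36 CPM (1.88 to 2.92) with neither and at 10.1, 9.69 and 12.4 CPM in the other 3, whose intervals overlap. Against the *S100a6*-only barcodes, none of the 26 members past the floor was 1.5-fold higher or lower in the *Apoe*+ *S100a6*-high group, against 1.29% of all genes higher and 3.14% lower, and *Slc2a1* had a log2 ratio of 0.17, *Hk1* 0.18 and *Ndrg1* 0.35.

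**Figure D3:**
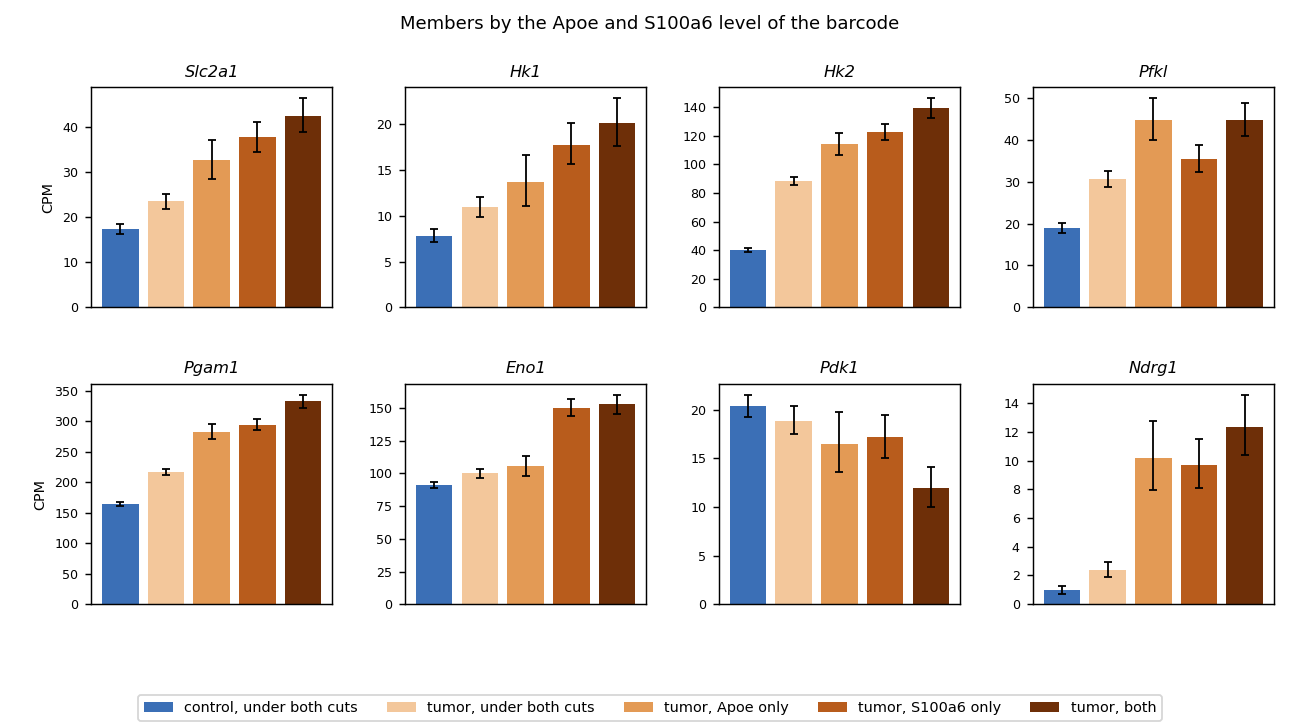
Level (CPM, linear axes from 0) of 8 genes in control barcodes under both limits (blue) and in tumor barcodes under both limits, over the Apoe limit only, over the S100a6 limit only and over both (light to dark brown), with exact 95% Poisson intervals as bars. Hk2 stands at 40.1 CPM in the blue and 88.3 CPM in the lightest bar, while Ndrg1 is low in both and stands between 9.69 and 12.4 CPM in the other 3.

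Across single barcodes the enzymes and the HIF targets were not seen to move together. After thinning to 3000 UMIs, a barcode of the group held on average 11.1 enzyme UMIs and 2.06 HIF target UMIs, and Spearman's rho between them was −0.05 over the 1048 barcodes. It was −0.02 over the 6143 other tumor barcodes and 0.03 over the 5745 control barcodes. For scale, the enzymes split into 2 alternating groups had a rho of only 0.07 with each other in the *Apoe*+ *S100a6*-high barcodes, and the HIF targets split likewise had 0.10. In the other tumor and the control barcodes the split HIF targets had −0.02 and 0.01, so there the parts of the HIF sum did not move with each other either. The barcodes share 1 library and 1 thinning draw, and the HIF sum is carried by *Bnip3l*, with 1100 of its UMIs in the thinned group. Left out of the sum, *Bnip3l* did not move the value from −0.05. At these counts a weak coupling was not detectable.

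The enzyme level was also read in bins of HIF target UMIs. In the group it ran between 3479 CPM (3244 to 3726, at 4 UMIs) and 3808 CPM (3674 to 3945, at 1 UMI), without a steady order. It was 3748 CPM (3575 to 3929) over the 155 barcodes with none and 3656 CPM (3525 to 3789) over the 271 with 2. Over the 30 with 6 or more it was 3556 CPM (3177 to 3967), and all intervals of the group overlapped. The other tumor barcodes ran between 3474 CPM (3411 to 3539, at 3 UMIs) and 3641 CPM (3566 to 3717, at none), whose intervals do not overlap, with 3637 CPM at 4 UMIs, and without a steady order. The control barcodes ran between 3196 and 3413 CPM, with 3283 CPM (3213 to 3354) at none and 3413 CPM (3361 to 3467) at 2 UMIs, which do not overlap and differ in the opposite direction. No member had a rho with the summed HIF targets, itself left out, outside −0.08 to 0.07 in the group.

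**Figure D4:**
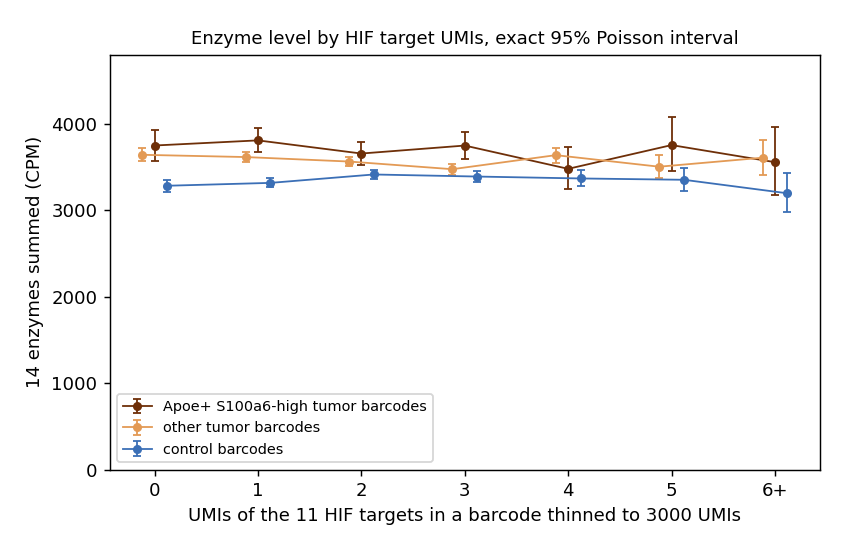
Summed level of the 14 enzymes (CPM, axis from 0) in barcodes thinned to 3000 UMIs and grouped by their UMIs of the 11 HIF targets, with exact 95% Poisson intervals, in Apoe+ S100a6-high tumor barcodes (dark brown), other tumor barcodes (light brown) and control barcodes (blue). The dark line runs from 3748 CPM at 0 to 3556 CPM at 6 or more, without a steady order and with overlapping intervals. The blue points lie below both tumor lines at every number of UMIs.

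Within the group, the 524 barcodes at or above the median of *Cd63*, a tetraspanin of lysosomes, were set against the 524 below it. *Bnip3* was lower in the *Cd63*-high barcodes, at 8.02 against 13.2 CPM, and so was *Ndrg1*, at 9.10 CPM (6.92 to 11.7) against 16.7 CPM (13.3 to 20.8), while no member was 1.5-fold higher. Against this, 2.84% of 8581 genes were higher and 7.24% lower. *Pgam1* stood at 374 against 278 CPM, and *Hk2* was level at 139.2 and 140.1 CPM.

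Tumor barcodes outside the group were also split by *Spp1*, the gene for osteopontin. In 955 with at least 3000 CPM of *Spp1*, against 5188 with less, *Slc2a1* (42.8 against 25.1 CPM) and *Pgam1* (338 against 224 CPM) were at least 1.5-fold higher, against 3.03% of 8779 genes. *Ndrg1*, at 9.17 against 4.27 CPM, passed the floor only through the *Spp1*-high barcodes. In 642 *Inhba*-high barcodes, with at least 500 CPM of the gene for the activin A subunit, no member passed 1.5-fold against the other 6549, where only 0.996% of all genes were higher and 1.24% lower. *Slc2a1* stood there at 42.8 against 29.3 CPM and *Hk2* at 132 against 104 CPM. The 271 tumor barcodes with at least 3 UMIs of 10 mitotic genes had *Ndrg1* at 10.0 CPM against 6.13 CPM in the 6920 others, with intervals of 7.01 to 13.9 and 5.54 to 6.76, and *Pgk1* at 169 against 124 CPM. *Ndrg1* was the 1 member of 26 past 1.5-fold there, against 14.3% of all genes.

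The 22 control barcodes over both limits gave few counts. *Slc2a1*, *Hk1*, *Hk2*, *Pfkl* and *Pgk1* were at least 1.5-fold higher there than in the 5723 other control barcodes and *Pkm*, *Pfkfb3* and *Pdk1* lower, but at this depth 18.1% of all genes past the floor were higher and 24.2% lower. *Hk2* rested on 19 UMIs, at 92.2 CPM (55.5 to 144) against 41.0 CPM. *Pfkfb3* rested on 1 UMI, at 4.9 CPM against 19.8 CPM, and passed the floor only through the other control barcodes.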

How the data were processed

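Single-cell transcriptomes of AMs were measured with the 10x Genomics 3′ chemistry. The authors demultiplexed and counted the reads with Cell Ranger, and the deposited values are raw UMI counts for each gene, unscaled, in barcodes already reduced to called cells. The submitters' processing notes name Cell Ranger 4.0.0, bcl2fastq 2.20 and build mm10. The paper's methods name a later Cell Ranger release. Of 32285 identifiers, 32158 matched a symbol.

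From these counts, UMIs were summed over barcodes and expressed as CPM, and ratios were taken between sums. The floor, the 1.5-fold limit and the intervals (95%) are given where they first appear. All members were named, with those other pathway genes that passed 1.5-fold and the genes and markers that set barcode groups. The members and lists were chosen with earlier results of these data known. For correlations each barcode was thinned without replacement to 3000 UMIs. Scrublet made 0 calls by its own limit in 6185 control and 7666 tumor barcodes, so no doublets were removed, and leaving out the highest scores (4.43% and 5.35%) was an alternative. 1 marker of monocyte-derived macrophages, and the sum of that list, are not reported here. The libraries share 25 barcode sequences. Alternatives changed the barcode filter, the scaling, the floor, the fold, the limits on *Apoe* and *S100a6*, the comparison barcodes and the thinning. The scripts were tested on simulated data. Python 3.11.15 was used with numpy 2.4.6, scipy 1.17.1, pandas 2.3.3, scanpy 1.11.5 and matplotlib 3.10.9.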

Additional observations from a re-analysis of the deposited data

How the results depend on the processing

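No paired analysis was possible because each group is 1 library. Of 1132 alternative values, 982 kept their reading and 150 left their counting interval or, for counts, moved by over 1.5 times. No member past 1.5-fold changed sign, while 35 other values did, 28 of them ratios of single members that had not passed; the cause was not tested. For tumor over control, the number of members that were higher went from 5 of 25 to 12 at a smaller fold limit (11.3% of all genes), to 1 at a fold of 2 (2.58%) and to 2 between barcodes under both limits (3.43%). The enzymes' median of 0.28 became 0.23 with the mean of each barcode's CPM, 0.31 when centred on all genes, 0.24 at a floor of 20 CPM and 0.18 between barcodes under both limits. For *Apoe*+ *S100a6*-high barcodes, the number that were higher went from 3 of 26 to 8 and 1 at the smaller fold limit and at a fold of 2 (7.27% and 1.43% of all genes), to 1 of 21 at a floor of 20 CPM (2.94%), to 6 against barcodes under both limits (5.1%; *Ndrg1*, 1 of the 6, passed the floor only through the group), to 0 against the *S100a6*-only barcodes (1.29%) and to 5 in the control library (18.1%). The 1 lower member, *Pdk1*, became 0 when centred, at a floor of 20 CPM, at a fold of 2, with the limits halved (1604 barcodes) or doubled (530 barcodes), against the *S100a6*-only barcodes and after thinning, and the control library had 3. The enzymes' median of 0.08 became 0.19 when centred, −0.01 against the *S100a6*-only barcodes and 0.18 in the control library, and that of the HIF targets went from −0.05 to 0.06 and 0.08 when centred and in the control library. Over all 11 HIF targets without a floor, the targets' median went from 0.03 to 0.46 in tumor over control and from −0.05 to 0.22 in the group, because targets under the floor are then included. The correlation of −0.05 was 0.03 in control barcodes and between −0.06 and −0.00 under the other settings within the group. *Hk2* and *Pfkl* were higher in tumor under all 11 settings that kept the fold and floor, *Slc2a1* and *Hk1* in 10 and *Pgam1* in 9. The comparisons between barcodes under both limits and against *S100a6*-only barcodes, the omission of *Bnip3l*, the medians without a floor and the lists without epithelial genes were chosen after seeing the data. Genes under about 5 CPM were limited by depth.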
